A study of Arabidopsis thaliana with 36 samples.

Results

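The sucrose synthase family of Arabidopsis thaliana consists of the genes SUS1 (AT5G20830), SUS2 (AT5G49190), SUS3 (AT4G02280), SUS4 (AT3G43190), SUS5 (AT5G37180) and SUS6 (AT1G73370), taken by locus from the 28775 loci of each count table. These 6 members were chosen by name, with earlier results of these data known. Their transcript levels are described in 36 poly-A RNA libraries, 3 biological replicates each of 3 genotypes in 4 tissues. The genotypes are wild-type Col-0, a triple bZIP mutant and a quintuple bZIP mutant, in plants kept in soil under long days until flowering began, with no treatment labelled. The labels name neither the mutated genes nor the alleles, and the series title refers to the S1 group of basic leucine zipper (bZIP) transcription factors. The tissues are source leaves (sugar exporting), sink leaves (sugar importing), rosette buds and flowers.

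Sucrose synthase reversibly splits sucrose with UDP into UDP-glucose and fructose, while invertases split the same sugar irreversibly into glucose and fructose. UDP-glucose from this step can enter cellulose, callose and starch synthesis, and the enzyme is known mainly from organs that import sugar and from the phloem. In Arabidopsis, SUS1 and SUS4 form a closely related pair known to respond to low oxygen, SUS2 and SUS3 are best known from developing seeds, with SUS3 also responding to dehydration, and SUS5 and SUS6 are known from sieve elements. S1 bZIP factors are known as regulators of metabolism under changing sugar and energy supply, some of them repressed at the level of translation by sucrose.

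Levels are given as CPM, a gene's share of the library's counts after scaling over all 36 libraries. Differences are log2 fold changes from edgeR's quasi-likelihood test, each with its standard error (SE) and a p adjusted over all genes of that comparison (Benjamini-Hochberg). A gene is said to have risen or fallen where that p is below 0.05. The libraries held 18158887 to 25124369 counts. Nothing in the labels says how the replicates were grown apart, so p-values measure the spread between these libraries. The tissue labels were checked against marker lists: summed flower identity genes reached 257 to 268 CPM in wild-type flowers and at most 14.6 CPM in the other wild-type tissues, and bud genes reached 297 to 375 CPM in wild-type rosette buds against at most 60.3 CPM elsewhere in wild type. In the mutants the flower list still marked flowers (122 to 306 CPM against at most 13.2 CPM elsewhere). The bud list marked buds less well, at 102 to 168 CPM in triple buds against at most 89.1 CPM in the other triple tissues. In the quintuple mutant it did not separate the tissues, at 142 to 440 CPM in buds, 104 to 215 CPM in flowers and 49.8 to 187 CPM in sink leaves. Neither list was chosen to tell source from sink leaves, so those labels were not checked by them. Leaf photosynthesis genes summed to 63360 to 88583 CPM in wild-type source leaves and 113857 to 125369 CPM in wild-type sink leaves. That shows only that the leaf groups differ. Of the S1 genes themselves, bZIP11 and bZIP44 were lower in flowers of the quintuple mutant than in wild type (190 to 34.9 CPM and 105 to 32.6 CPM; log2 -2.39 and -1.65, adjusted p = 0.00341 and 0.00103), while bZIP1 was higher there (5.81 to 40.9 CPM, log2 2.86, adjusted p = 0.000996), as was bZIP53 (55.1 to 75.4 CPM, log2 0.50, adjusted p = 0.04998). In flowers of the triple mutant bZIP11 and bZIP44 fell too (log2 -0.78 and -0.56) and bZIP2 rose (0.44). Outside flowers 0 of 5 S1 genes passed in any tissue of the triple mutant, and 0 of 5 in buds of the quintuple mutant. In source leaves of the quintuple mutant 1 rose and 1 fell, and in its sink leaves 1 fell. Without the alleles, these values check only that the labelled genotypes differ, for the triple mutant in flowers alone and for the quintuple mutant in flowers and leaves.

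The 6 genes lie on chromosomes 1, 3, 4 and 5 of the RefSeq assembly TAIR10.1, with coding sequences of 2424 bases (SUS2) to 2829 bases (SUS6) in 12 to 15 coding exons. Coding identity was 84.3% between SUS1 and SUS4, 71.4% between SUS2 and SUS3 and 68.3% between SUS5 and SUS6, and 60.4 to 68.0% for all other pairs. SUS1 and SUS4 therefore share the most sequence, and coding bases 817 to 912 are shown because they hold the longest identical run of this pair. In the lines here, 7 of 96 bases differ and stand in capitals; the SUS1 bases lie at chr5:7052790-7052885 and the SUS4 bases at chr3:15181407-15181502, both on the minus strand.
SUS1: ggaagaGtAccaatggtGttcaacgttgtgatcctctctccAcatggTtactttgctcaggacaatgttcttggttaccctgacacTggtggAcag
SUS4: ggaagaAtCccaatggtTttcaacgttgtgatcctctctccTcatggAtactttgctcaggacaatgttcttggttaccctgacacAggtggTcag
The longest identical run between both coding sequences was 38 bases, and no run of 75 bases was shared by any pair of members. The sources used here do not say how reads matching both genes were divided. SUS4 values where SUS1 is far more abundant are therefore uncertain.

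In wild type, SUS1 dominated the family in every tissue and was highest in flowers. Its level was 422, 381 and 397 CPM in the 3 flower libraries. In source leaves it was 73.1, 88.5 and 68.5 CPM, in sink leaves 57.7, 85.3 and 38.5 CPM, and in rosette buds 59.1, 52.2 and 68.3 CPM. The flower libraries stood above every other library, and the remaining tissues overlapped except buds and source leaves. SUS1 was 5.01-fold higher in flowers than in source leaves (log2 2.33 ± 0.21 SE, adjusted p = 2.33e-07), 6.48-fold higher than in sink leaves (log2 2.70 ± 0.22, adjusted p = 6.67e-08) and 6.81-fold higher than in buds (log2 2.77 ± 0.22, adjusted p = 9.9e-08). The leaf and bud levels did not pass a test against each other (adjusted p = 0.0734 to 0.790).

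SUS3 and SUS4 were highest in rosette buds of wild type. SUS3 stood at 21.6, 15.3 and 28.5 CPM in buds, 10.6, 13.5 and 15.4 CPM in flowers, 10.7, 12.3 and 8.83 CPM in source leaves and 10.2, 9.18 and 7.93 CPM in sink leaves. The bud libraries overlapped the flower range only through the second replicate. SUS3 was higher in buds than in source leaves (log2 0.96 ± 0.21, adjusted p = 0.00101), sink leaves (1.20 ± 0.21, adjusted p = 0.00021) and flowers (flowers minus buds -0.70 ± 0.20, adjusted p = 0.00914, a call lost in 2 of 12 fits that left out 1 library), while flowers, source leaves and sink leaves were not separated (adjusted p = 0.0521 to 0.475). SUS4 fell into 4 separate levels, 6.93, 4.01 and 9.27 CPM in buds, 1.46, 1.09 and 2.01 CPM in flowers, 0.741, 0.959 and 0.691 CPM in source leaves and 0.180, 0.126 and 0.125 CPM in sink leaves. No library of one tissue reached the range of another, and all 6 tissue pairs passed for SUS4, buds being 7.98-fold above source leaves and flowers 4.34-fold below buds. The sink leaf values rest on 3, 2 and 2 counts, so the distance to that tissue is loosely known. The weakest SUS4 pair, flowers over source leaves (log2 0.88 ± 0.37, adjusted p = 0.0425), was lost in 8 of 12 fits that left out 1 wild-type library.

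SUS5 and SUS6, the sieve element pair, were lowest in source leaves. SUS6 stood at 2.36, 2.49 and 2.07 CPM in source leaves, 7.14, 3.46 and 4.31 CPM in sink leaves, 8.46, 4.92 and 12.5 CPM in buds and 13.9, 11.1 and 11.4 CPM in flowers. SUS5 stood at 0.927, 0.895 and 0.904 CPM in source leaves, 3.66, 1.57 and 1.19 CPM in sink leaves, 3.28, 1.97 and 3.67 CPM in buds and 4.82, 4.49 and 4.53 CPM in flowers. For both genes the source leaf libraries lay below every other library, sink leaves and buds overlapped, and flowers overlapped buds for SUS6 but not for SUS5. Flowers exceeded source leaves 5.04-fold for SUS6 (log2 2.33, adjusted p = 1.55e-05) and 4.85-fold for SUS5 (log2 2.28, adjusted p = 7.17e-05), and buds exceeded source leaves for both (adjusted p = 0.00021 and 0.00169). Sink leaves exceeded source leaves by 1.08 (SUS6, adjusted p = 0.0367) and 1.21 (SUS5, adjusted p = 0.0437) on the log2 scale. Both of those calls rested on the first sink leaf replicate among others, since without it the values were 0.72 (adjusted p = 0.174) and 0.57 (adjusted p = 0.274). SUS2, a seed-associated gene, was near the lower limit everywhere, from 0.252 CPM (4 counts) in a sink leaf library to 1.70 CPM in a bud library, and among tissue pairs it passed the test for buds over sink leaves (log2 1.57 ± 0.52, adjusted p = 0.0169), a call lost in 3 of 12 such fits. Over all 6 members and 6 tissue pairs, 22 of 36 tests passed. Among all genes, 22.2% passed between sink and source leaves, 67.4% between buds and source leaves, 74.8% between flowers and source leaves, 64.3% between buds and sink leaves, 72.3% between flowers and sink leaves and 55.9% between flowers and buds, so passing a test between unlike tissues is common.

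**Figure D1:**
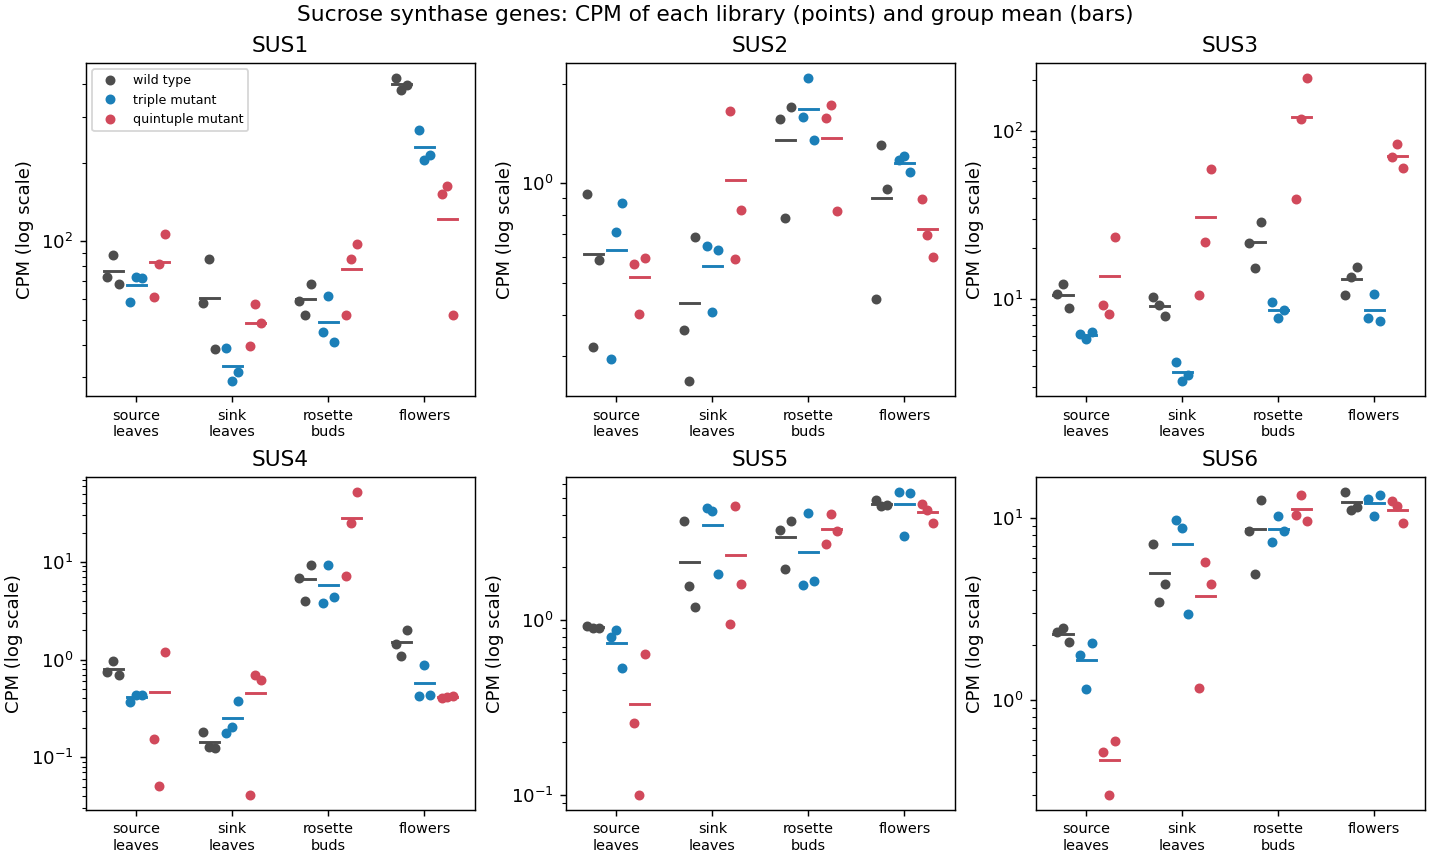
CPM of each sucrose synthase gene (log axis) in all 36 libraries; points are libraries, bars are means of 3 replicates, grouped by tissue and genotype. SUS1 peaks in wild-type flowers at 381 to 422 CPM, and SUS3 reaches 39.6 to 206 CPM in buds of the quintuple mutant.

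Levels were compared between members only as CPM per kilobase of coding sequence. On that scale SUS1 made up 92.9% of the family sum in wild-type flowers, 83.8% in source leaves, 77.9% in sink leaves and 60.6% in buds, with SUS3 second in buds at 21.5%. By group mean SUS1 was the most abundant member in 11 of 12 groups. The exception was rosette buds of the quintuple mutant, where SUS3 held 46.4% of the sum (35.3 to 55.9% over 3 libraries) and SUS1 36% (26.5 to 46.6%). In the first of those bud libraries SUS1 led, at 46.6 against 35.3%. SUS3 led in the third quintuple library of flowers (48.2 against 41.8%) and of sink leaves (51.8 against 42.3%). In flowers of the quintuple mutant the SUS3 share was 36.5% (29.4 to 48.2%), against 3.06% in wild type (2.34 to 3.58%) and 3.44% in the triple mutant (2.61 to 4.64%). The SUS1 share there was 55.9% (41.8 to 63.8%), below every wild-type library (92.4 to 93.6%). In sink leaves the SUS3 share was 31.9% in the quintuple mutant, 12.5% in wild type and 7.83% in the triple mutant. The family sum in flowers was 177 ± 8.36 (SD, n = 3) CPM per kilobase in wild type, 105 ± 14.0 in the triple mutant and 85.6 ± 30.2 in the quintuple mutant. In buds it was 41.2 ± 9.0, 30.9 ± 6.59 and 99.4 ± 52.6 in the same order.

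**Figure D2:**
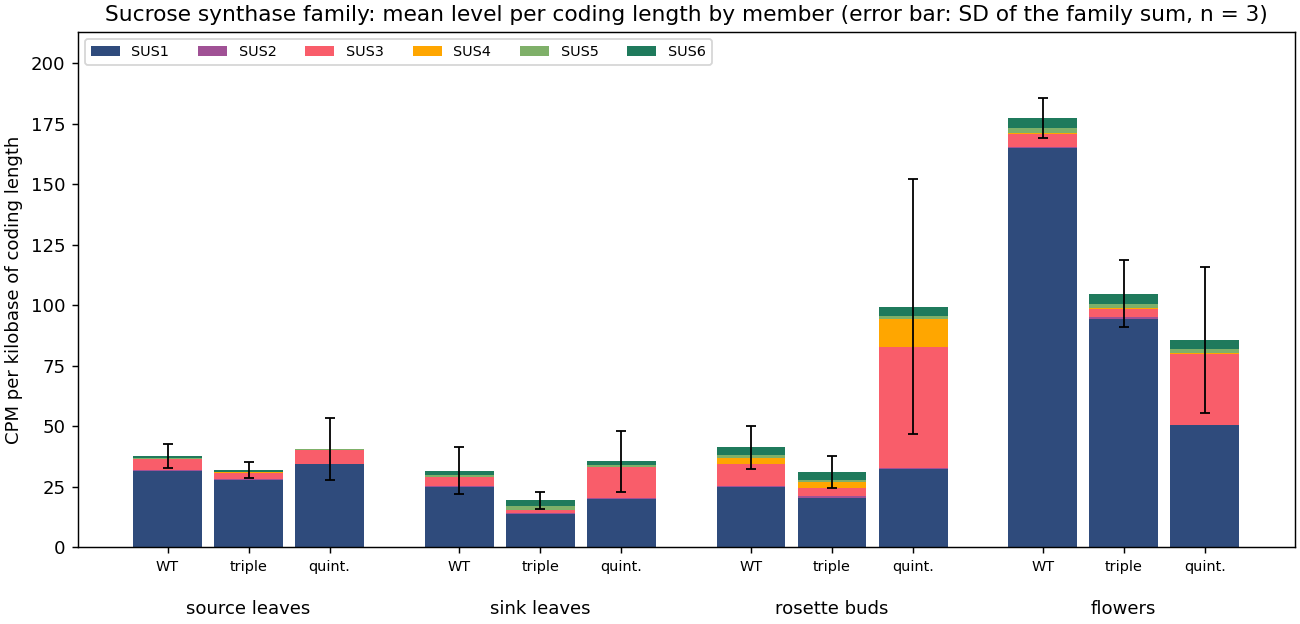
Stacked level of the 6 members in CPM per kilobase of coding sequence, mean of 3 libraries in each of 12 groups; the error bar is the SD of the family sum. SUS1 fills most of every column except buds of the quintuple mutant, where SUS3 averages 49.7 and SUS1 32.3 CPM per kilobase.

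Against wild type, every called change in the triple mutant was a decrease, and SUS3 fell in all 4 tissues. In total 7 of 23 tests passed, all lower. All 7 of these calls, SUS3 in every tissue included, were lost when the 3 quintuple libraries of the tissue joined the fit and 1 spread was shared (adjusted p = 0.0572 to 0.385). SUS4 in sink leaves had too few counts to be tested. Among all genes, 7.51% fell in source leaves, 12.1% in sink leaves, 8.86% in buds and 15.6% in flowers of the triple mutant (16.4, 24.5, 16.5 and 26.6% in either direction). In the quintuple mutant 5 of 23 tests passed, 2 higher and 3 lower, where the shares of all genes in either direction were 18% in source leaves, 24.8% in sink leaves, 2.27% in buds and 38.6% in flowers. By direction, 8.85% of all genes fell in its source leaves, 11.9% rose in its sink leaves, and 19.7% rose and 18.8% fell in its flowers. The same shares stand behind the counts of listed genes given below. Both mutants were compared with the same wild-type libraries, so their differences are not independent of each other. The mutants compared with each other gave 7 of 23 passing tests, 6 higher and 1 lower in the quintuple mutant, with SUS3 higher in all 4 tissues. Among all genes that comparison called 34.8% in source leaves, 43.8% in sink leaves, 38.6% in buds and 34.1% in flowers, with 16.5, 23.1, 22.9 and 19.5% higher in the quintuple mutant in that order and 18.3% lower in source leaves. It took its spread from all 9 libraries of the tissue. With only the 6 mutant libraries in the fit, 3 of the 7 calls were lost and 1 other result passed.

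**Figure D3:**
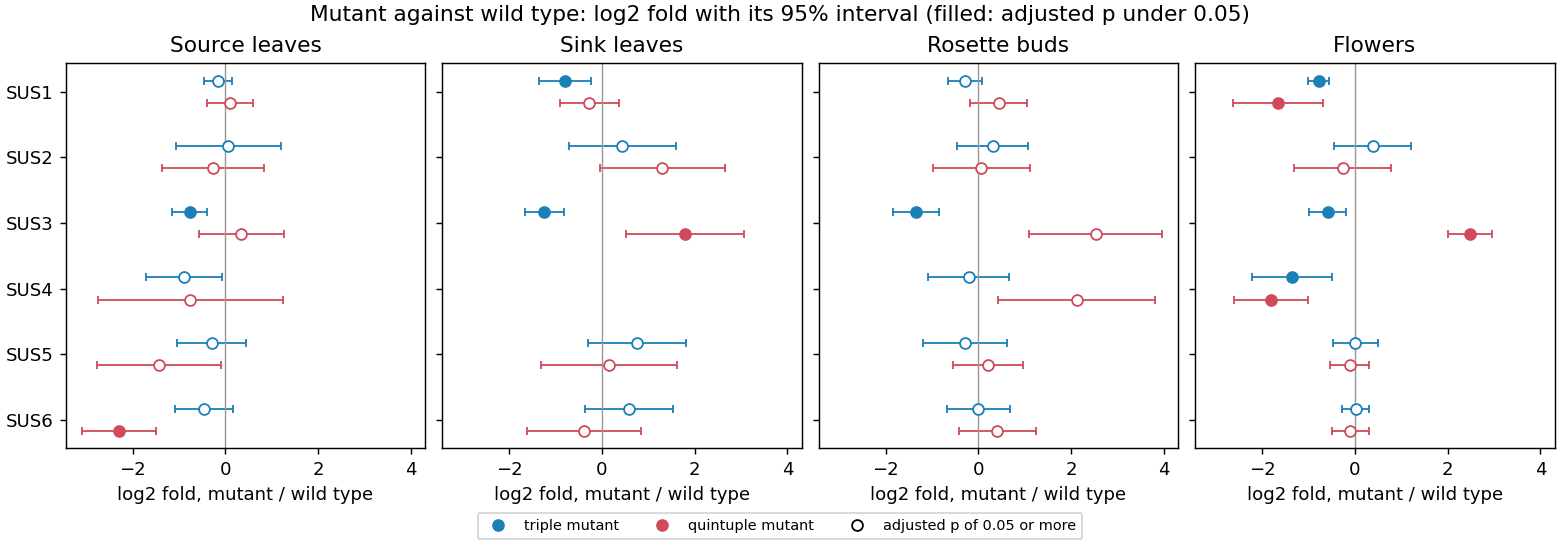
Log2 fold change of each member against wild type in the triple and the quintuple mutant, a panel per tissue, with 95% intervals; filled symbols have an adjusted p below 0.05. SUS3 lies below 0 in every triple mutant panel and at 2.48 in quintuple mutant flowers, while SUS5 and SUS6 lie near 0 in flowers of both mutants.

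SUS1 changed in flowers, falling in both mutants. Against 422, 381 and 397 CPM in wild-type flowers, the triple mutant held 268, 205 and 215 CPM and the quintuple mutant 152, 162 and 52.0 CPM. All mutant libraries lay below all wild-type libraries, and the third quintuple library lay far below the other two. SUS1 fell by 0.78 ± 0.10 SE on the log2 scale in the triple mutant (adjusted p = 0.00042) and by 1.66 ± 0.41 in the quintuple mutant (3.16-fold lower, 95% interval -2.63 to -0.69, adjusted p = 0.0177). Both calls held whichever library was left out, with the quintuple value at -1.29 without the third library. The mutants themselves did not pass a test against each other (log2 -0.85 ± 0.36, adjusted p = 0.0944), although their libraries did not overlap. Without the third quintuple library that difference was -0.47 with adjusted p = 0.00896.

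Markers of mature pollen moved with SUS1 in flowers. The 6 listed genes summed to 6189, 5823 and 5781 CPM in wild-type flowers, 2409, 1936 and 2157 CPM in the triple mutant and 1030, 1417 and 284 CPM in the quintuple mutant. The lowest sum and the lowest SUS1 level were in the same library, the third of the quintuple mutant. All 6 of 6 pollen genes fell in both mutants (median log2 -1.57 and -2.75, against medians of all genes between -0.01 and 0.03). In wild type the pollen sum was at most 10.2 CPM outside flowers. Tapetum markers, from the anther tissue that feeds developing pollen, went the other way, 13.5, 13.2 and 35.9 CPM in wild-type flowers against 201, 127 and 259 CPM in the quintuple mutant, and 5 of 6 tested rose there. The part of pollen content in the SUS1 difference was not tested. In whole-tissue RNA, fewer cells of a type and less RNA per cell cannot be told apart.

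Outside flowers SUS1 passed in sink leaves of the triple mutant and, between the mutants, in buds. In sink leaves of the triple mutant, SUS1 stood at 38.9, 29.0 and 31.4 CPM against 57.7, 85.3 and 38.5 CPM in wild type. These ranges overlapped at their edge, the test passed (log2 -0.80 ± 0.25, adjusted p = 0.0452, as large a difference as in flowers of that mutant), and the call was lost in 5 of 6 fits that left out 1 library, falling to -0.48 without the second wild-type library (adjusted p = 0.154). In source leaves SUS1 did not pass in either mutant (log2 -0.16 and 0.10, adjusted p = 0.449 and 0.757). In buds of the quintuple mutant it stood at 52.1, 85.7 and 97.1 CPM, above the triple mutant at 44.9, 61.4 and 40.8 CPM by 0.72 ± 0.25 on the log2 scale (adjusted p = 0.0494). That last call was lost in 8 of 9 fits that left out 1 library (adjusted p up to 0.149).

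Among the members tested, SUS3 had the largest difference between the mutants in flowers, buds and sink leaves, while in source leaves that of SUS6 was larger, as was that of SUS5 without passing the test (log2 -1.15, adjusted p = 0.123). It was lower than wild type in every tissue of the triple mutant, and in the quintuple mutant it was higher in sink leaves and flowers. The 250 bases before its annotated start are shown because SUS3 changed in mutants of bZIP factors, whose known binding sites often contain an ACGT core, beside the same window of SUS1, the most abundant member, which fell in flowers of both mutants. The SUS3 window is chr4:994476-994725 on the plus strand and the SUS1 window chr5:7055399-7055648 on the minus strand, with any such core in capitals.
SUS3: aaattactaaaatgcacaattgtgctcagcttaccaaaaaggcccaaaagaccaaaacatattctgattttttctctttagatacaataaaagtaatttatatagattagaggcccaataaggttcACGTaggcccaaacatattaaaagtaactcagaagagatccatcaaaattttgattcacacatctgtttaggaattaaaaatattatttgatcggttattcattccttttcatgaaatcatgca
SUS1: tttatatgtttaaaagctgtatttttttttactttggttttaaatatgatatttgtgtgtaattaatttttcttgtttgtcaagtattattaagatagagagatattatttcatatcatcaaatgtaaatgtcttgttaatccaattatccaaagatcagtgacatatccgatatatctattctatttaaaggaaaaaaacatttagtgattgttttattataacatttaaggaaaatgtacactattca
Both strands were searched for the G-box CACGTG and for the C-box GACGTC. The core ACGT, contained in both boxes, was searched on its own, as was the motif ACTCAT known from S1 bZIP targets. SUS3 held 1 ACGT, starting 124 bases before the start, SUS5 held 1, starting 186 bases before, and the windows of the remaining members held no match to any of the 4 motifs. Among 27443 gene windows of the same length, 44.1% held the core, 6.49% the G-box, 2.27% the C-box and 12.3% the last motif. A match is a string of letters and not a shown binding site.

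SUS3 in the triple mutant stood at 9.52, 7.73 and 8.57 CPM in buds, all below the wild-type libraries at 21.6, 15.3 and 28.5 CPM, a 2.54-fold lower level (log2 -1.34 ± 0.22, adjusted p = 0.00707). In sink leaves it stood at 4.22, 3.25 and 3.52 CPM against 10.2, 9.18 and 7.93 CPM, 2.37-fold lower (log2 -1.24 ± 0.19, adjusted p = 0.00300). Neither tissue had overlapping libraries, and both calls held whichever library was left out of the 6, but not in the fit with all 9 libraries of the tissue (adjusted p = 0.385 in buds and 0.139 in sink leaves). In source leaves SUS3 stood at 6.22, 5.75 and 6.36 CPM against 10.7, 12.3 and 8.83 CPM (log2 -0.77 ± 0.17, adjusted p = 0.0160), again without overlap. In flowers it stood at 7.65, 10.7 and 7.40 CPM against 10.6, 13.5 and 15.4 CPM (log2 -0.59 ± 0.18, adjusted p = 0.0348), where the highest mutant library passed the lowest wild-type one. The source leaf call was lost in 3 of 6 fits that left out 1 library (adjusted p up to 0.078) and the flower call in 4 of 6 (up to 0.118).

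In flowers of the quintuple mutant SUS3 stood at 70.2, 83.5 and 60.0 CPM, every library far above both other genotypes. The rise over wild type was 2.48 ± 0.20 on the log2 scale (95% interval 2.01 to 2.95, adjusted p = 0.000353), and it held whichever library was left out (2.26 to 2.60). In buds the quintuple libraries stood at 39.6, 118 and 206 CPM, all above the wild-type libraries, yet the spread was 5.20-fold from lowest to highest and the test did not pass (log2 2.53 ± 0.60, interval 1.10 to 3.95, adjusted p = 0.0688). Only 464 genes, 2.27% of those tested, passed in that comparison. DESeq2 called SUS3 in buds (adjusted p = 0.000271), as did the fit without the first quintuple bud library (log2 2.94, adjusted p = 0.00066). In sink leaves the values were 10.5, 21.8 and 59.3 CPM against 10.2, 9.18 and 7.93 CPM. The lowest mutant library lay just above the highest wild-type library, and the rise was 1.79 ± 0.55 (3.46-fold, adjusted p = 0.0495). It was lost in 5 of 6 fits that left out 1 library and stood at 0.86 without the third quintuple library (adjusted p = 0.0864). In source leaves the values were 9.24, 8.15 and 23.4 CPM, overlapping wild type, with a difference of 0.34 (interval -0.58 to 1.26, adjusted p = 0.555).

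Set directly against the triple mutant, SUS3 in the quintuple mutant was 14.5-fold higher in buds (log2 3.86 ± 0.55, adjusted p = 0.00959), 8.61-fold higher in flowers (adjusted p = 3.77e-05), 8.43-fold higher in sink leaves (log2 3.08 ± 0.54, adjusted p = 0.00176) and 2.16-fold higher in source leaves (log2 1.11 ± 0.36, adjusted p = 0.0384). No library of one mutant reached the range of the other in any tissue. The flower and sink leaf calls held whichever library was left out. The bud call was lost without the first triple mutant library (adjusted p = 0.0535). The source leaf call was lost in 5 of 9 such fits and stood at 0.51 without the third quintuple library (adjusted p = 0.077). Whether the SUS3 difference from wild type differs between tissues did not pass a test in either mutant (adjusted p = 0.138 in the triple and 0.120 in the quintuple mutant).

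Genes of the abscisic acid and dehydration response, a signal to which SUS3 is known to respond, showed the following values beside SUS3. In the triple mutant 4 of 12 tested genes fell in source leaves, 7 of 10 in sink leaves and 9 of 12 in buds, with none rising (median log2 -0.72, -1.18 and -1.71). In flowers of the triple mutant 4 rose and 3 fell of 10. In flowers of the quintuple mutant 5 rose and none fell of 10 (median 0.83), the list summing to 582, 809 and 857 CPM there against 407 to 433 CPM in wild type. In sink leaves and buds of the quintuple mutant none rose and 3 fell, of 11 and 12 tested. The summed level of the list in the quintuple mutant was 336, 456 and 1000 CPM in buds, 441, 586 and 1349 CPM in sink leaves and 616, 616 and 1482 CPM in source leaves. In each of these tissues the third library was highest for the list and also for SUS3. In flowers of the quintuple mutant the third library was highest for the list and lowest for SUS3 (60.0 CPM). SUS1 too was highest in the third quintuple library in buds and source leaves (97.1 and 106 CPM), but not in sink leaves. In wild type the list summed to 754 to 878 CPM in buds, 370 to 585 CPM in sink leaves and 595 to 847 CPM in source leaves. The part of this response in the SUS3 differences was not tested. The bud markers, genes of a tissue in which wild-type SUS3 is highest, moved with SUS3 in some comparisons only. In buds of the triple mutant 4 of 4 fell (median log2 -1.55). In flowers of the quintuple mutant 3 of 4 rose (median 4.10), and the list summed to 104 to 215 CPM there against 35.6 to 44.9 CPM in wild type. In buds of the quintuple mutant 0 of 4 passed (median -0.47), where the SUS3 value was 2.53 without passing. In flowers of the triple mutant 1 of 4 rose and 0 fell (median 0.76), where SUS3 fell (log2 -0.59). The part of the bud markers in the SUS3 differences was not tested. Guard cell markers, from another cell type in which SUS3 is known, had 0 of 7 passing in the triple mutant in either leaf type and in buds, and 1 of 7 lower in source leaves and 0 of 7 in sink leaves of the quintuple mutant. In flowers 2 of 7 fell in the triple mutant, and 2 fell and 1 rose in the quintuple mutant.

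SUS4, the close relative of SUS1, fell in flowers of both mutants. It stood at 1.46, 1.09 and 2.01 CPM in wild type, 0.419, 0.885 and 0.433 CPM in the triple mutant and 0.407, 0.418 and 0.426 CPM in the quintuple mutant. The wild-type libraries lay above all mutant libraries, and the quintuple values rest on 10, 9 and 10 counts. SUS4 was 2.56-fold lower in the triple mutant (log2 -1.36 ± 0.38, adjusted p = 0.0267) and fell by 1.81 ± 0.34 on the log2 scale in the quintuple mutant (adjusted p = 0.00585). The quintuple call held whichever library was left out. The triple call was lost in 4 of 6 such fits, at -1.11 without the third wild-type library (adjusted p = 0.101). Per kilobase of coding sequence SUS1 stood at 165 CPM in wild-type flowers and SUS4 at 0.627 CPM, and SUS1 fell there as well. How much of the SUS4 count comes from reads shared with SUS1 was not tested.

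In buds of the quintuple mutant SUS4 ranged from 7.12 to 25 and 52.4 CPM, against 6.93, 4.01 and 9.27 CPM in wild type and 3.84, 9.32 and 4.38 CPM in the triple mutant. The lowest quintuple library lay within the wild-type range, and the order of the 3 quintuple libraries was that of SUS3. The difference from wild type was 2.12 ± 0.71 on the log2 scale and did not pass (interval 0.43 to 3.81, adjusted p = 0.119). The difference from the triple mutant passed (4.98-fold, adjusted p = 0.0327), and was lost in 6 of 9 fits that left out 1 library. In source leaves of the quintuple mutant SUS4 had 3, 1 and 26 counts and in sink leaves 1, 14 and 12 counts. The source leaf difference was -0.75 and did not pass (adjusted p = 0.551). SUS4 and SUS1 belong to the genes known to respond to low oxygen. Of a list of other such genes, 8 of 14 tested fell and 1 rose in flowers of the quintuple mutant. Among all genes 18.8% fell and 19.7% rose there. In flowers of the triple mutant 3 fell and 1 rose of 14, where 15.6% of all genes fell. The list summed to 212 to 348 CPM in quintuple and 148 to 169 CPM in triple flowers, against 177 to 214 CPM in wild type. LBD41 stood at 66.0 CPM in wild type and 31.1 CPM in the quintuple mutant, and HUP54, the riser, at 19.2 and 166 CPM. In buds none of 14 passed in either mutant, where 16.5% (triple) and 2.27% (quintuple) of all genes did.

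SUS6 and SUS5 were lower in source leaves of the quintuple mutant, and the difference passed for SUS6. SUS6 stood at 0.516, 0.302 and 0.593 CPM (10, 6 and 13 counts) against 2.36, 2.49 and 2.07 CPM in wild type. No library overlapped, and SUS6 fell by 2.29 ± 0.34 on the log2 scale (interval -3.09 to -1.49, adjusted p = 0.0130). This call was lost when any 1 of the 3 wild-type libraries was left out (log2 -2.35 to -2.24, adjusted p up to 0.0737). Against the triple mutant, at 1.76, 1.15 and 2.04 CPM, it was 3.57-fold lower (log2 -1.83 ± 0.36, adjusted p = 0.00892), and that call held whichever library was left out. SUS5 stood at 0.258, 0.101 and 0.639 CPM (5, 2 and 14 counts) against 0.927, 0.895 and 0.904 CPM. Its libraries did not overlap either, but the test did not pass (log2 -1.43 ± 0.57, interval -2.76 to -0.10, adjusted p = 0.113). Without the third quintuple library the SUS5 difference was -2.31 (adjusted p = 0.0338).

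In source leaves of the triple mutant SUS4, SUS5 and SUS6 did not pass the test against wild type (log2 -0.89, -0.30 and -0.46, adjusted p = 0.122, 0.579 and 0.278). In the remaining tissues neither SUS5 nor SUS6 passed a test against wild type in either mutant. In flowers the 95% intervals of the quintuple difference ran from -0.54 to 0.32 for SUS5 and from -0.49 to 0.30 for SUS6, and the mean levels were 4.62, 4.58 and 4.15 CPM (SUS5) and 12.1, 12.1 and 11 CPM (SUS6) in wild type, triple and quintuple mutant. In sink leaves SUS6 stood at 1.16, 5.71 and 4.30 CPM in the quintuple mutant and 9.72, 8.73 and 2.96 CPM in the triple mutant, both overlapping wild type at 7.14, 3.46 and 4.31 CPM. SUS5 stood there at 0.951, 4.48 and 1.61 CPM in the quintuple and 4.39, 4.19 and 1.82 CPM in the triple mutant.

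Over the 12 group means of log2(CPM + 1), SUS5 and SUS6 had a Pearson r of 0.962, against 0.773 for SUS2 with SUS4, the next pair, and 0.529 for SUS3 with SUS4. These values describe 12 means that share the same libraries and carry no test. CalS7, the callose synthase of sieve elements, was among the 3 genes whose pattern over groups was closest to SUS6 (r = 0.977). The others were AT1G29380 (0.985) and QWRF2 (0.977). With Spearman's rho 0 of these 3 genes were among the closest 3. CalS7 averaged 1.28 CPM in wild-type source leaves, 3.37 in sink leaves, 7.22 in buds and 6.87 in flowers. In source leaves of the quintuple mutant CalS7 (CALS7 in the tests) averaged 0.510 CPM, below all wild-type libraries, and did not pass the test (log2 -1.32 ± 0.46, adjusted p = 0.0822). That group is among the 12 by which CalS7 was picked, so its low level there is not a separate result. Among sieve element and companion cell markers 1 of 7 tested genes fell in source leaves of the quintuple mutant (median -0.45), and the list summed to 316 to 924 CPM there against 675 to 683 CPM in wild type. Among xylem and secondary wall markers 8 of 8 tested genes fell (median -2.10), with sums of 15.1 to 20.8 CPM against 57.2 to 73.8 CPM. The leaf photosynthesis list summed to 23430 to 50536 CPM against 63360 to 88583 CPM, with 2 of 5 genes lower. The part of tissue makeup in the SUS6 difference was not tested.

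**Figure D4:**
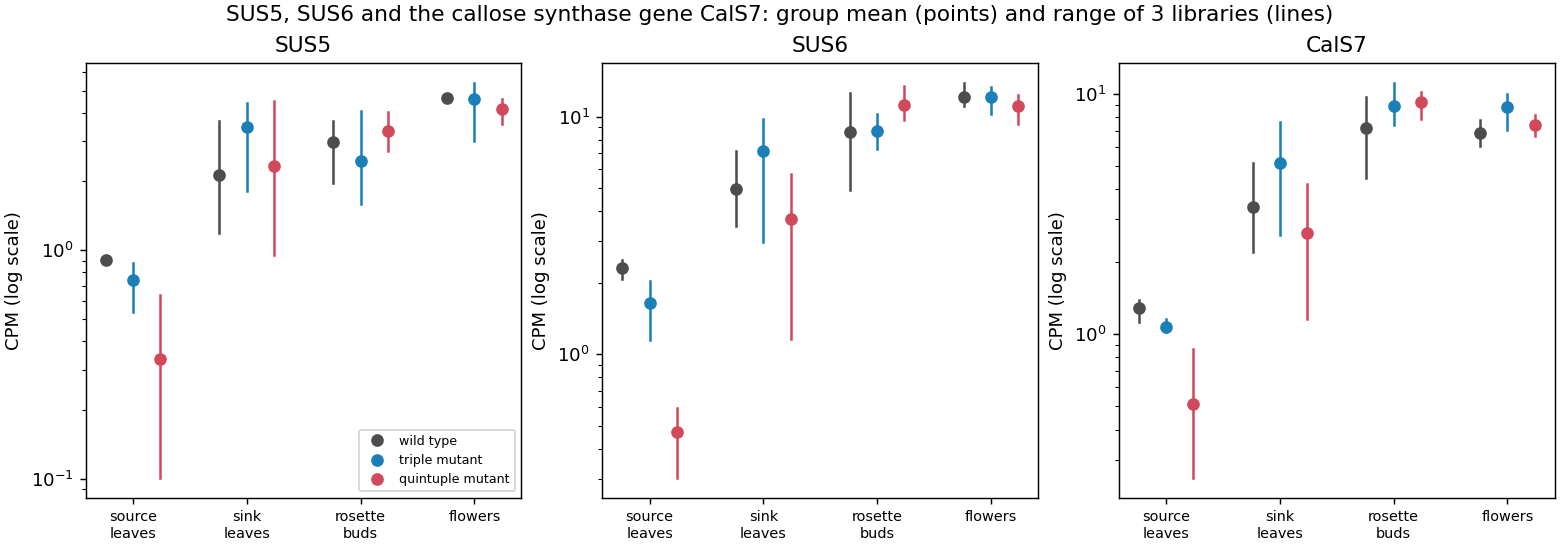
CPM of SUS5, SUS6 and the sieve element callose synthase gene CalS7 in each tissue and genotype; points are group means and lines span the lowest to highest of 3 libraries. Each gene is lowest in source leaves of the quintuple mutant, where the SUS6 libraries lie between 0.302 and 0.593 CPM. CalS7 was picked for its likeness to SUS6 over these groups, so its low point there is not a separate result. The pick used Pearson's r and was not kept with Spearman's rho.

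SUS2 passed no test in either mutant. Its mean was 0.905 CPM in wild-type flowers, 1.16 in the triple and 0.729 in the quintuple mutant, and 1.35, 1.68 and 1.38 CPM in buds in the same order. In sink leaves of the quintuple mutant it stood at 1.65, 0.591 and 0.829 CPM against 0.360, 0.252 and 0.687 CPM in wild type, which overlapped (log2 1.30 ± 0.58, adjusted p = 0.134). At these depths the wild-type sink values rest on 6, 4 and 11 counts, so that a moderate difference would not be detectable. Listed seed genes, from the organ in which SUS2 is best known, summed to at most 15.0 CPM in any library, and 0 to 5 of the 9 genes were at 0 throughout a group.

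The effect of the quintuple mutations differed between tissues for SUS1, SUS6 and SUS4. The test of genotype by tissue in 24 libraries passed for SUS1 (adjusted p = 0.0126), SUS6 (adjusted p = 0.0254) and SUS4 (adjusted p = 0.0258), and did not for SUS3, SUS2 and SUS5 (adjusted p = 0.120, 0.301 and 0.359). For SUS1 the differences were -1.66 in flowers and 0.44, 0.10 and -0.27 in buds, source leaves and sink leaves. For SUS6 they were -2.29 in source leaves and -0.09 in flowers. For SUS4 they were -1.81 in flowers and 2.12 in buds. Among all genes 23.2% passed this test. In the triple mutant no member passed by edgeR's quasi-likelihood test (adjusted p = 0.138 for SUS3 to 0.996 for SUS2), where 16.4% of all genes did.

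The 17 genes listed as invertases by name did not move in one direction. No activity was measured, so the names, that of CWINV6 included, do not show that each enzyme cleaves sucrose. In the triple mutant 2 fell and none rose of 12 tested in source leaves, 2 fell of 13 in sink leaves, 2 rose and 1 fell of 13 in buds, and 2 rose and 5 fell of 16 in flowers. In the quintuple mutant 3 rose of 14 in source leaves, 1 rose and 2 fell of 14 in sink leaves, 2 rose of 14 in buds, and 5 rose and 5 fell of 16 in flowers. Among all genes, 16.4, 24.5, 16.5 and 26.6% passed in the triple mutant in the same order of tissues. In the quintuple mutant these shares were 18, 24.8, 2.27 and 38.6%. The cell wall invertase CWINV2 fell in flowers from 266 CPM in wild type to 77.6 CPM in the triple mutant (log2 -1.75 ± 0.11, adjusted p = 2.53e-06) and 32.7 CPM in the quintuple mutant (-2.97 ± 0.47, adjusted p = 0.00328), the tissue in which SUS1 fell. CWINV1, another cell wall enzyme, rose in the quintuple mutant from 31.3 to 148 CPM in source leaves (log2 2.23 ± 0.36, adjusted p = 0.0143) and from 10.02 to 46.9 CPM in buds (2.27 ± 0.22, adjusted p = 0.0299). CWINV6 rose in the same source leaves from 15.2 to 50.9 CPM (adjusted p = 0.0143). The vacuolar invertase VI2 fell in flowers of the quintuple mutant from 467 to 237 CPM (adjusted p = 0.0019).

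Genes that use the products of sucrose cleavage were lower in flowers of the quintuple mutant in 4 of 12 tests and higher in 2. Among all genes 18.8% were lower and 19.7% higher there. UGP1 and UGP2, which convert UDP-glucose to glucose-1-phosphate, fell from 87.1 to 37.9 CPM (log2 -1.16 ± 0.16, adjusted p = 0.00199) and from 79.9 to 32.5 CPM (-1.25 ± 0.18, adjusted p = 0.00236). HXK1, the hexokinase that is also a glucose sensor, fell from 161 to 74.1 CPM (-1.08 ± 0.17, adjusted p = 0.00349). Flowers of the triple mutant had 4 risers and 2 fallers of 12, and at most 1 passed in each other tissue. In source leaves of the quintuple mutant 4 of 9 fell and 2 rose, and in sink leaves 3 of 11 fell. Of the genes of sucrose synthesis, 4 of 8 fell in source leaves in each mutant and none rose, and SPSC, a sucrose phosphate synthase, fell from 398 to 142 CPM in sink leaves of the quintuple mutant (log2 -1.43 ± 0.26, adjusted p = 0.00984). Primary wall cellulose synthases, which use UDP-glucose, fell in 3 of 5 tests in source leaves and 4 of 5 in sink leaves of the quintuple mutant, CESA5 from 230 to 83.7 CPM and from 337 to 121 CPM. The median over all genes was between -0.01 and 0.03 in each of these comparisons.

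The genes whose pattern over the 12 groups was closest to each member were found among 23016 genes by Pearson r of group means of log2(CPM + 1). For SUS1 they were AT3G11690, PRA1.B3 and MYB32 (r = 0.973, 0.970 and 0.962), each highest in wild-type flowers. For SUS3 they were NTL9, ADF9 and ADF5 (0.958, 0.958 and 0.949), each highest in buds of the quintuple mutant. For SUS4 they were ZFP3, AT2G28780 and SCPL12 (0.981, 0.978 and 0.977). For SUS5 they were AT5G11990, NS2 and AT5G48060 (0.984, 0.979 and 0.976), and for SUS6 AT1G29380, QWRF2 and CalS7 (0.985, 0.977 and 0.977). For SUS2 they were AT3G53440, AT3G27520 and DWA1 (0.965, 0.961 and 0.959). With Spearman's rho in place of Pearson's r, 2 of 3 names were shared for SUS2, 1 of 3 for SUS3 and 0 of 3 for the rest, so these names depend on the measure. With 0.1 CPM added in place of 1, 1 of 3 names was shared for SUS6 and 2 of 3 for each other member.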

How the data were processed

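RNA was sequenced from 36 libraries of Arabidopsis thaliana, 3 in each of 12 groups. The libraries were made from poly-A RNA with a stranded TruSeq kit, per the labels' protocols. The deposited files are 8 tables of raw counts for 28775 loci, each with 1 mutant and the wild type of 1 tissue; the 12 wild-type columns appear in 2 tables, all 12 were identical, and each was used once. The tissue of each column is that of its table. The build TAIR10 and the tools edgeR, Salmon 0.7.2, DESeq2, R 3.5.1 and SAMtools 0.1.18 are named in the submitters' processing notes without roles; the counting rule and its use of strand are not given in the sources used here, so a gene and a partner on the other strand cannot be told apart.

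Counts were tested with edgeR 4.0.16 in R 4.3.3 (filterByExpr, TMM scaling, quasi-likelihood F test, Benjamini-Hochberg adjustment over all genes of a comparison, threshold 0.05): 6 libraries for a mutant against wild type in 1 tissue, 9 for the mutants against each other, 12 for wild-type tissues and 24 for genotype by tissue. CPM was scaled over 36 libraries (factors 0.667 to 1.33), and 95% intervals use the fit's own degrees of freedom. The procedure was tested on simulated data. Sequences and coding lengths come from the RefSeq assembly TAIR10.1. In each comparison and list, genes named are those passing with the smallest adjusted p, up to 4 per list; CESA5 and the S1 genes follow the same rule, and CalS7 was named through its likeness to SUS6. The members and the gene lists were chosen with earlier results of these data known.

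Alternatives were DESeq2 1.42.0, other scalings and filters, organelle loci left out, a replicate block, other libraries in the fit, and each library left out in turn. Replicate numbers were checked for pairing by the correlation of deviations from group means: all 3 pairs exceeded 0.1 for wild-type sink against source leaves (0.173, 0.183 and 0.315), where the block changed no call, and in no other comparison. No pair of replicates agreed within sampling noise (lowest chi-square 5.66 per gene).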

Additional observations from a re-analysis of the deposited data

Results flagged for a closer look

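The difference between the quintuple mutant and wild type differed between tissues for 3 members, by a test of the genotype by tissue terms in 24 libraries. For SUS1 the adjusted p was 0.0126; SUS1 was lower in flowers (log2 -1.66) and within 0.44 of wild type elsewhere, and the call held whichever library was left out (adjusted p = 0.00458 to 0.0335). For SUS6 the adjusted p was 0.0254; SUS6 was lower in source leaves (-2.29) and differed by -0.39, 0.41 and -0.09 in sink leaves, buds and flowers, and the call was lost without the second quintuple source leaf library (adjusted p = 0.0722). For SUS4 the adjusted p was 0.0258; SUS4 was lower in flowers (-1.81) with a value of 2.12 in buds that did not itself pass, and the call was lost in 5 of 24 fits that left out 1 library (adjusted p up to 0.0643). Groups of 3 libraries are too small for a rule on single outlying libraries.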

How the results depend on the processing

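Calls on the members were stable to the count model and less so to single libraries. Of 117 results, 116 kept direction and side of the threshold with median-ratio scaling, 115 without the filter on low counts and 116 without organelle loci. With library totals in place of TMM, 102 of 117 did. That scaling moved the median of all genes by 0.44 (log2) in quintuple sink leaves, 0.23 in quintuple source leaves and 0.82 for wild-type buds against sink leaves, and turned SUS1 to 0.14 in quintuple sink leaves, 0.16 for wild-type buds against source leaves and 0.74 for buds against sink leaves, none of them called in the main setting. SUS6 in triple buds turned to -0.00077 without organelle loci. DESeq2 gave 4 more calls, SUS3 and SUS4 in quintuple buds (adjusted p = 0.000271 and 0.0143), SUS1 between mutants in flowers (0.0426) and the SUS3 tissue test (0.0478), and 1 fewer, SUS4 in wild-type flowers against source leaves (0.0504).

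The number of called differences in the triple mutant went from 7 to 0 when the quintuple libraries joined the fit of the tissue and shared 1 spread (SUS3 adjusted p = 0.255 in source leaves, 0.139 in sink leaves, 0.385 in buds and 0.118 in flowers, SUS1 0.0633 in sink leaves and 0.229 in flowers, SUS4 0.0572 in flowers). For SUS3 the quintuple libraries spread 5.20-fold from lowest to highest in buds against 1.87-fold in wild type, but 1.39-fold in flowers against 1.45-fold. With the replicate number as a block, the quintuple count went from 5 to 3, SUS5 in triple flowers turned to -0.016 and SUS4 between mutants in source leaves to -0.11. The block also lost SUS3 in triple source leaves (adjusted p = 0.0606), SUS6 in quintuple source leaves (0.0639), SUS3 in quintuple sink leaves (0.114) and, between mutants, SUS3 in source leaves (0.0619) and SUS1 in buds (0.0603). Outside wild-type leaves the numbers did not pair the libraries by the check used, though each triple and wild-type sink leaf library correlated best with its own number (0.202, 0.0772 and 0.189). The causes of these changes were not tested.

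Leaving out 1 library at a time gave 4 to 8 calls in the quintuple mutant, 4 to 8 between the mutants, 5 to 7 in the triple mutant, 18 to 24 among wild-type tissues and 2 to 4 in the tissue tests. Of the called differences 3 of 7 in the triple mutant, 3 of 5 in the quintuple mutant, 3 of 7 between the mutants and 16 of 22 among tissues held in every such fit. Uncalled values that changed sign ran as follows (log2, lowest to highest). In the quintuple mutant they were SUS1 -0.51 to 0.055 in sink and -0.11 to 0.28 in source leaves, SUS2 -0.67 to 0.029 in flowers, -0.23 to 0.32 in buds and -0.55 to 0.16 in source leaves, SUS3 -0.28 to 0.62 in source leaves, SUS5 -0.047 to 0.36 in buds and -0.69 to 0.79 in sink leaves, and SUS6 -0.26 to 0.030 in flowers and -0.82 to 0.046 in sink leaves. In the triple mutant they were SUS2 -0.25 to 0.50 in source leaves, SUS4 -0.72 to 0.11 in buds, SUS5 -0.11 to 0.24 in flowers, and SUS6 -0.059 to 0.13 in flowers and -0.27 to 0.38 in buds. Between the mutants they were SUS2 -0.45 to 0.0072 in buds, SUS4 -0.62 to 0.016 in flowers and -1.96 to 0.66 in source leaves, SUS5 -0.32 to 0.038 and SUS6 -0.19 to 0.051 in flowers. Between wild-type buds and sink leaves SUS1 ran from -0.31 to 0.25. CPM levels moved by more than 1 SD in 26 of 72 groups with scaling within tissues and in 29 with library totals. Depth limits SUS2, and SUS4 in leaves, which rest on few counts; values by count cover counting error only.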
